A study of Mus musculus with 14 samples.

Results

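The genes described here build and remodel the actin cytoskeleton, and they were read in the livers of high-fat-fed mice given mesenchymal stem cells (MSCs) or saline. The set holds 46 genes chosen by name for their place in actin remodelling. Coro1a, Lcp1, Rac2 and Was, which are made mainly by blood cells, were set against the other 42, most of which are made by nearly every cell. A gene was measured where a probe set on the array is annotated to its symbol and no other, and where several such probe sets exist the one with the highest mean over the 14 arrays was taken. This gave 41 of the 46 members, out of 19938 genes measured in that way. Actg1, cytoplasmic gamma actin, appears in 4 probe sets that also carry Actb, and Arpc3, Actr2, Pak1 and Rock2 have no such probe set, so these 5 were not analysed here.

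All 14 mice were male C57BL/6, 24 weeks of age, and had eaten a high-fat diet for 20 weeks. HFM mice (n = 7) received human bone marrow MSCs of a single donor through the tail vein, and HFS mice (n = 7) received the vehicle, named as saline in the labels and as PBS in part of the methods. Frozen liver was taken 24 h later and its total RNA was put on Affymetrix Mouse Gene 1.0 ST arrays, 1 mouse per array. Neither a litter nor a scan date is given, so a batch could not be examined, and no group on a normal diet was measured here. The values are log2 expression as deposited, every difference is HFM minus HFS on that log2 scale, and levels of different probe sets are not set against each other.

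Actin monomers join into filaments and leave them again, and cells move, swallow particles and keep their shape by steering that cycle. Signalling switches such as Rac and Cdc42 act through WASP and WAVE proteins on the Arp2/3 complex, which starts new branches, while cofilin severs old filaments, thymosins hold monomers in reserve, and myosin II pulls on the finished network. Blood cells carry their own versions of several of these parts, among them Rac2 beside Rac1, Was beside Wasl and coronin 1A beside its broadly made relatives. The pool of free monomers is also read by the coactivator MRTF, which with the factor SRF binds a promoter element named the CArG box and so ties the state of actin to the transcription of actin genes.

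The arrays were alike as a whole. Their medians lay between 4.24 and 4.35, and every pair of arrays correlated at 0.979 or more over the 23410 probe sets with a gene symbol, with a median of 0.991 both within and between the groups. HFM3 had the lowest mean correlation with the other arrays, 0.986, and the lowest weight, 0.409, when arrays were weighted. Albumin (Alb), the defining product of hepatocytes, averaged 13.43 ± 0.05 in HFM livers and 13.52 ± 0.06 in HFS livers (SD, n = 7 each). For Alb, 0 of 7 HFM mice were above the HFS mean. Its difference of -0.09 had an unadjusted limma p of 0.0980, and an exact permutation test over all assignments of the mice gave 0.00816. The 6 hepatocyte markers had a median difference of 0.02 with none called in limma at the threshold used below. Mouse HFM2 stood apart in its neutrophil genes and was also the highest mouse in the monocyte, macrophage and pan-leukocyte markers. In T cell, B cell and erythroid markers it lay below the mean of all mice. The mean of 10 neutrophil markers in HFM2 was 1.04 above the mean of all mice, against -0.14 to -0.04 in the other HFM mice and -0.17 to 0.26 in HFS mice. The counts of genes called are therefore also given without HFM2, a setting that for the marker lists was added after the data were seen. HFS5 was the highest HFS mouse in the same lists, at 0.51 in macrophage, 0.26 in neutrophil and 0.21 in pan-leukocyte markers. The marker lists are not given without HFS5, so leaving out HFM2 takes the highest mouse from the HFM group only.

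No member passed a Benjamini-Hochberg adjusted p of 0.05, and adjusted p values from limma over all 23410 probe sets ran from 0.714 to 0.976 among the members. Over the whole array 0 probe sets passed (0%), the smallest adjusted p being 0.305, while 1514 had an unadjusted p under 0.05. The counts that follow use that unadjusted threshold, and "called higher" and "called lower" mean no more than this. Of the 41 members, 10 were called higher in HFM than in HFS livers (24.4%), against 3.57% of all probe sets tested and 3.42% of genes at 1 probe set each. Called lower were 2 (4.88%), against 2.90% of all probe sets and 3.14% of genes. The remaining 29 were neither. The study had itself named regulation of the actin cytoskeleton as the main pathway activated by MSCs, from these same livers. The counts of members given here are therefore not independent of that result. In all, 34 members had a difference above 0 and 7 below it, against 51.4% of all probe sets and 50.5% of genes above 0, and the median difference was 0.10 over the members and 0.00 over all probe sets. Brighter genes leaned upward more generally, since 58.5% of the 9972 genes above the median brightness of 4.65 were above 0 with 5.03% of them called higher and 2.43% lower. A probe set at or below that median is called dim here, which describes its signal and not the amount of RNA. Of the 37 members among these brighter genes, 33 were above 0, 9 were called higher and 0 lower.

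The 10 members called higher were Arpc1b, Rac2, Tmsb4x, Limk1, Myl12a, Iqgap1, Msn, Myh9, Capg and Tln1, with differences of 0.16 to 0.34, or 1.11-fold to 1.27-fold. Myl9 and Tiam1 were called lower. At an unadjusted p under 0.01 there were 2, Myl12a and Iqgap1, both higher (0.786% of all probe sets were higher at that threshold). No member passed the methods' filter, which adds a 1.2-fold change. Before any Bonferroni correction, 0.453% of all probe sets passed that filter as higher and 0.243% as lower. In no member were the groups fully apart. At least 5 of 7 HFM mice stood above every HFS mouse in 7 members (17.1%), against 1.87% of all probe sets, and these were Myl12a, Iqgap1, Arpc1b, Tln1, Wasf2, Actn1 and Arpc1a. Without HFM2, 6 members were called higher and 2 lower (2.49% and 2.13% of all probe sets were so called), and Tmsb4x, Rac2, Msn and Tln1 were no longer called. The number called higher was 16 without HFM5, the HFM mouse that was lowest of its group in 14 members, where 5.4% of all probe sets were called higher. Without HFS3 it was 5, where 2.68% of all probe sets were. Arpc1b, Msn and Rac2 are also in functional categories that the study drew up from these same livers. Among the 38 members outside those categories, 7 were called higher (18.4%, against 3.57% of all probe sets) and 2 lower (5.26%, against 2.90%).

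**Figure D1:**
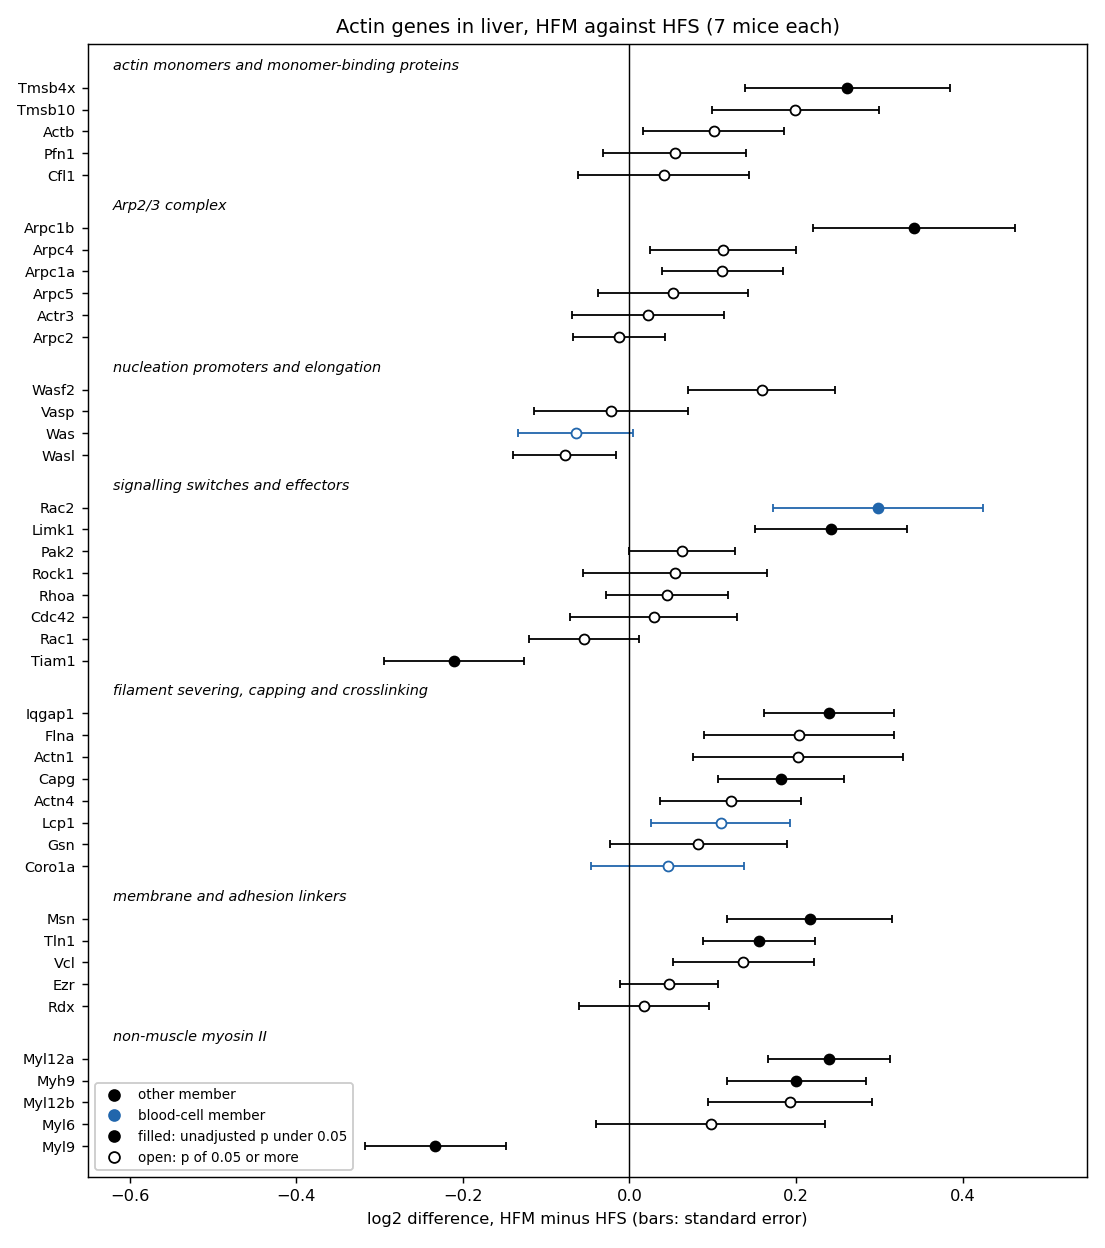
Log2 difference, HFM minus HFS, of the 41 measured members by role, with bars of 1 standard error from limma; 7 mice per group. Filled points had an unadjusted p under 0.05 and blue points are the 4 blood-cell members. Most points lie right of 0, with Myl9 and Tiam1 at the left.

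The promoters are shown here because the members that carry a CArG box include both genes called lower. The letters searched were CC, then 6 of A or T, then GG, on both strands, in windows of 250 bases before to 50 bases after each start of transcription in RefSeq (GRCm38.p6). Windows were found for 41 of the 46 members, and 6 of these genes held the element (14.6%), against 488 of 27025 genes with a window (1.81%). They were Actg1, Arpc4, Myl6, Myl9, Tiam1 and Vcl. No window was found for Actb, Rac1, Rac2, Pak2 or Rock1, so these could not be searched. Among members called higher, 0 of 9 with a window held it, and among those called lower, 2 of 2. Among those that were neither, 3 of 25 did. The split rests on Myl9 and Tiam1, whose probe sets are dim (means of 4.12 and 4.17), and the promoters are shown because these genes carry the element. How often it occurs among all genes called higher or lower was not counted, so no pattern is read from it. The Tiam1 match was in 1 of the 2 windows of that gene and lay 6 to 15 bases past the start of transcription. Capitals mark the element in the first 5 stretches, which are taken from the windows of the measured genes, and the PU box in the last.
Myl9, chr2:156775274-156775353, plus strand: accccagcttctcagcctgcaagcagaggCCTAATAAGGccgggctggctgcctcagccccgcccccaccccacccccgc
Tiam1, chr16:89974675-89974759, minus strand: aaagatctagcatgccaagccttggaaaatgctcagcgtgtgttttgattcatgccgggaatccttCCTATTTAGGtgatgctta
Vcl, chr14:20929148-20929217, plus strand: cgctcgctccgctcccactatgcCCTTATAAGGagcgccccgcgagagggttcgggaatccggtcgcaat
Myl6, chr10:128493010-128493094, minus strand: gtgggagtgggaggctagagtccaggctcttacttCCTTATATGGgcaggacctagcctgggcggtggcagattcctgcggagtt
Arpc4, chr6:113377863-113377932, plus strand: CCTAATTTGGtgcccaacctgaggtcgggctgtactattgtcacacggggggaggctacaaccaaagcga
Arpc1b, chr5:145114196-145114280, plus strand: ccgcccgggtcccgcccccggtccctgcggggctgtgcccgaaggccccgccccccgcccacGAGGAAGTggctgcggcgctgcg
The PU box GAGGAAGT, the recognition sequence of the blood-cell factor PU.1, was in the window of 1 member, Arpc1b (2.44% of members with a window, against 3.69% of all genes). It starts 2 bases past the start of transcription. It was in none of the windows found for blood-cell members, of which Rac2 had none, and in 4 of 18 other leukocyte actin regulators, Fgd3, Fmnl1, Parvg and Vav1 (22.2%). The letters TATAAA of the TATA box were in 3 members, Cdc42, Myh9 and Rhoa (7.32%, against 15.7% of all genes). Counted from the start of transcription, they lay at -235 to -230 in Cdc42, -123 to -118 in Myh9 and 25 to 30 in Rhoa. In Myh9 and Rhoa they were on the opposite strand. A match is a run of letters in a window, and binding was not measured.

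The blood-cell members differed among themselves. Rac2, the Rac switch of leukocytes, ran from 5.74 to 6.80 in HFM livers with a median of 6.26, against 5.74 to 6.21 with a median of 5.88 in HFS livers. The groups overlapped, with 4 HFM mice above every HFS mouse and HFM5 the lowest of all 14. Its mean was 6.20 ± 0.35 in HFM and 5.90 ± 0.16 in HFS livers (SD, n = 7 each), a difference of 0.30 with a standard error of 0.13. Limma gave Rac2 an unadjusted p of 0.0296 and an adjusted p of 0.768, and the two-sided exact permutation test over all 3432 assignments of the mice gave 0.0594. Without HFM2 the difference was 0.20, with an unadjusted limma p of 0.0733.

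Lcp1, or L-plastin, which bundles filaments in leukocytes, had values of 7.32 to 7.84 in HFM livers, median 7.66, and of 7.35 to 7.73 in HFS livers, median 7.44. The ranges lay largely on top of each other and 4 of 7 HFM mice were above the HFS mean. Its difference was 0.11 (standard error 0.08), with an exact permutation p of 0.218. Coro1a, a leukocyte coronin that binds filaments and Arp2/3, spanned 4.53 to 5.20 in HFM livers, median 4.80, against 4.58 to 5.02 in HFS livers, median 4.76. HFM2 held the highest value and HFM5 the lowest. The difference of 0.05 (standard error 0.09, exact permutation p of 0.648) was -0.015 without HFM2. Was, the Wiskott-Aldrich protein that switches on Arp2/3 in blood cells, stood at 4.02 to 4.42 in HFM livers, median 4.23, and at 4.16 to 4.43 in HFS livers, median 4.26. Only 2 of 7 HFM mice were above the HFS mean, and the probe set is dim, its mean of 4.24 lying below the median brightness of all probe sets. The difference of Was was -0.06 (standard error 0.07, exact permutation p of 0.313).

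Set against the rest, the 4 blood-cell members had a median difference of 0.08, with 3 above 0 and 1, Rac2, called higher. The 37 other members had a median of 0.10, with 31 above 0, 9 called higher (24.3%, against 3.57% of all probe sets) and 2 lower (5.41%, against 2.90%). Among those called higher are Arpc1b, Msn and Capg, which, as described below, are also prominent in leukocytes or macrophages. The sets are therefore not a clean split by cell type. Averaged per mouse relative to the mean of all 14, the blood-cell members stood at 0.05 ± 0.18 in HFM and -0.05 ± 0.08 in HFS mice (SD, n = 7 each). The other members stood at 0.05 ± 0.11 in HFM and -0.05 ± 0.05 in HFS mice. Both differences of means were 0.10, and the mice that were highest were not the same. The blood-cell members ran from -0.16 in HFM5 to 0.40 in HFM2, and 1 HFM mouse lay above the highest HFS mouse, HFS5 at 0.13. For the other members 5 HFM mice stood higher than all HFS mice, the highest being HFM6 at 0.16. Without HFM2 the median difference of the blood-cell members was 0.03.

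**Figure D2:**
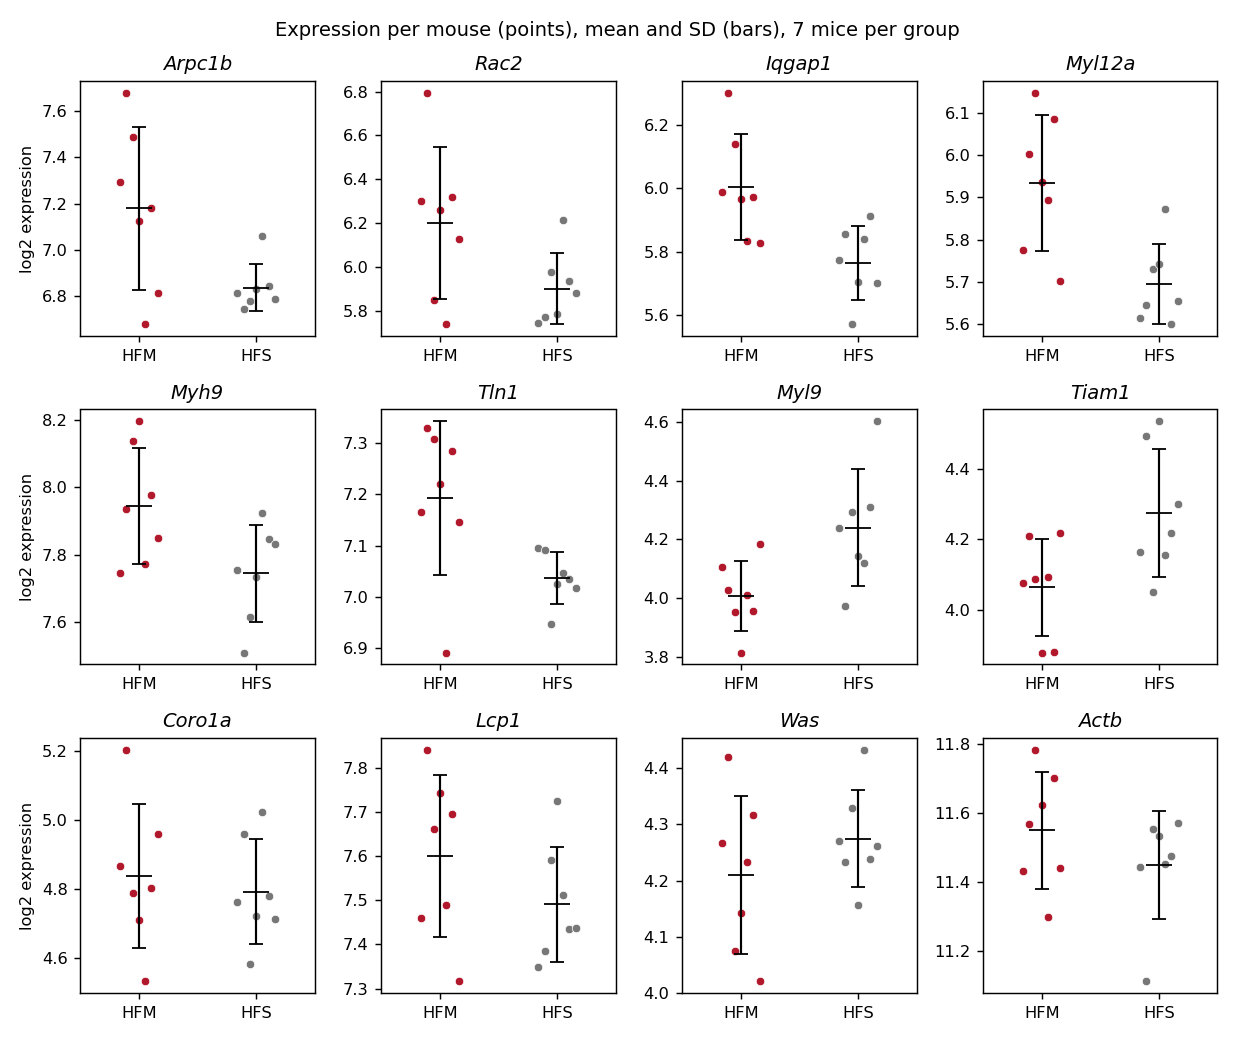
Log2 expression of 12 members in each mouse (points), with mean and SD (bars) of 7 HFM and 7 HFS mice; each panel has its own vertical scale. In Arpc1b, Rac2 and Tln1 most HFM points are above the HFS points with 1 or more HFM mice at or below them, and in Coro1a, Lcp1, Was and Actb the groups lie side by side.

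Among actin monomers and the proteins that bind them, 5 of 6 listed genes were measured, all 5 were above 0 and 1 was called higher. Tmsb4x, thymosin beta 4, which holds actin monomers in reserve, ran from 9.22 to 10.08 in HFM livers, median 9.73, against 9.25 to 9.79 in HFS livers, median 9.33. Of the HFM mice 6 were above the HFS mean, 2 were above every HFS mouse and HFM3 was below them all. The difference was 0.26 (standard error 0.12), with an unadjusted limma p of 0.0470 and an exact permutation p of 0.0927. Tmsb4x lost its call in 13 of 23 alternative analyses, among them the one without HFM2, where its p was 0.109. Its relative Tmsb10 differed by 0.20 with a p of 0.0625.

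Actb, cytoplasmic beta actin, served as the loading control of the study's PCR measurements. It spanned 11.30 to 11.78 in HFM livers, median 11.57, and 11.11 to 11.57 in HFS livers, median 11.47. HFS2 was the lowest mouse and the other HFS mice lay within the HFM range. Its difference was 0.10 (standard error 0.08), with an unadjusted limma p of 0.247 and an exact permutation p of 0.279. Pfn1, profilin, which feeds monomers to growing filaments, differed by 0.05 and Cfl1, cofilin, by 0.04. Both of these had wider HFM ranges, with HFM3 below every HFS mouse.

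In the Arp2/3 complex, 6 of 8 listed subunits were measured and 5 were above 0, with a median of 0.08. Arpc1b, the form of the 40 kDa subunit that prevails in blood cells, ran from 6.68 to 7.68 in HFM livers, median 7.18, against 6.75 to 7.06 in HFS livers, median 6.82. Of the HFM mice, 5 stood above every HFS mouse, while the lowest, HFM5, stood below them all. The mean was 7.18 ± 0.35 in HFM and 6.84 ± 0.10 in HFS livers (SD, n = 7 each). This difference of 0.34 (standard error 0.12) was the largest of any member, with an unadjusted limma p of 0.0114, an adjusted p of 0.736 and an exact permutation p of 0.0355. A second Arpc1b probe set differed by 0.40 (standard error 0.13), but whether it reads the gene independently of the first was not tested.

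Arpc1a, the other form of that subunit, is the neighbour of Arpc1b on chromosome 5 with 0 coding genes between them. Its difference was 0.11 and was not called, although 5 of 7 HFM mice were above every HFS mouse. Within each mouse, Arpc1b minus Arpc1a was larger by 0.23 in HFM than in HFS livers, and 6 of 7 HFM mice were above the HFS mean. The other subunits Arpc4, Arpc5, Actr3 and Arpc2 differed by 0.11, 0.05, 0.02 and -0.01.

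The 4 genes that promote nucleation and elongation had a median of -0.04, and none was called. Wasf2, the WAVE protein that carries the Rac signal to Arp2/3, differed by 0.16 and had 5 of 7 HFM mice above every HFS mouse, with HFM5 below them. Wasl, the broadly made relative of Was, differed by -0.08, and 4 HFM mice were below every HFS mouse. Vasp, which extends filaments, differed by -0.02. Was minus Wasl within each mouse was larger by 0.01 in HFM than in HFS livers.

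Of the genes that signal to actin, Limk1 and Tiam1 were called in opposite directions. Limk1, the kinase that phosphorylates and so inactivates cofilin, ran from 5.43 to 5.96 in HFM livers, median 5.64, against 5.10 to 5.65 in HFS livers, median 5.39. Every HFM mouse was above the HFS mean and 3 were above every HFS mouse. Its difference was 0.24 (standard error 0.09), with an unadjusted limma p of 0.0162 and an exact permutation p of 0.0256. Tiam1, an exchange factor that loads Rac with GTP, was lower, at 3.88 to 4.22 in HFM livers, median 4.09, against 4.05 to 4.54 in HFS livers, median 4.22. Every HFM mouse was below the HFS mean. The difference was -0.21 (standard error 0.08), with an unadjusted limma p of 0.0216 and an exact permutation p of 0.0332, on a dim probe set with a mean of 4.17.

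None of the switches made by all cells was called. Rac1 differed by -0.05, Cdc42 by 0.03 and Rhoa by 0.05, and the kinases downstream of them, Pak2 and Rock1, by 0.06 and 0.05. Rac2 minus Rac1 within each mouse was larger by 0.35 in HFM than in HFS livers. For that measure 6 of 7 HFM mice were above the HFS mean and 5 were above every HFS mouse. Rac1 showed the opposite sign to Rac2, with 3 HFM mice below every HFS mouse and 2 above them all.

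The 8 genes that sever, cap and crosslink filaments were all above 0, with a median of 0.15, and 2 were called higher. Iqgap1, a scaffold that binds Rac1, Cdc42 and actin, ran from 5.83 to 6.30 in HFM livers, median 5.97, against 5.57 to 5.91 in HFS livers, median 5.77. Of the HFM mice 7 were above the HFS mean and 5 were above every HFS mouse. The mean was 6.00 ± 0.17 in HFM and 5.77 ± 0.12 in HFS livers (SD, n = 7 each). The difference of 0.24 (standard error 0.08) had an unadjusted limma p of 0.00656 and an exact permutation p of 0.00641, where the smallest p this design allows is 0.000583. Capg, a macrophage protein that caps filament ends, stood at 3.87 to 4.30 in HFM livers, median 4.05, and at 3.68 to 4.03 in HFS livers, median 3.91. The overlap was partial, 4 HFM mice lying above every HFS mouse, and the probe set is dim, with a mean of 3.95. The difference of Capg was 0.18 (standard error 0.08), with an unadjusted limma p of 0.0270 and an exact permutation p of 0.0291.

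The crosslinkers Actn1, Flna and Actn4 differed by 0.20, 0.20 and 0.12 and were not called. Actn1, alpha-actinin 1, had the widest HFM spread of the members, 6.18 to 7.32 with a median of 6.83, against 6.51 to 6.71 with a median of 6.56 in HFS livers. Of the HFM mice 5 were above the whole HFS range and 2 were below it. Gsn, gelsolin, which severs filaments in response to calcium, differed by 0.08.

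All 5 linkers of actin to membranes and adhesions were above 0, with a median of 0.14, and 2 were called higher. Msn, moesin, the linker of the ERM family that prevails in leukocytes and endothelium, ran from 6.10 to 6.87 in HFM livers, median 6.43, against 6.05 to 6.49 in HFS livers, median 6.24. HFM2 had the highest value, and 3 HFM mice were above every HFS mouse. The difference was 0.22 (standard error 0.10), with an unadjusted limma p of 0.0415 and an exact permutation p of 0.0659, and without HFM2 it was 0.15 with a limma p of 0.107. Its relatives Ezr and Rdx differed by 0.05 and 0.02. Tln1, talin, which couples integrins to actin, stood at 6.89 to 7.33 in HFM livers, median 7.22, against 6.95 to 7.09 in HFS livers, median 7.03. In 6 of 7 HFM mice Tln1 was above every HFS mouse, and in HFM5 it was below them all. Its difference of 0.16 (standard error 0.07) had an unadjusted limma p of 0.0324 and an exact permutation p of 0.0297, and without HFM2 it was 0.13 with a limma p of 0.0689. Vcl, vinculin, which binds talin, differed by 0.14 and was not called.

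Non-muscle myosin II gave members at both ends. Myl12a, a regulatory light chain, ran from 5.70 to 6.15 in HFM livers, median 5.94, against 5.60 to 5.87 in HFS livers, median 5.66. Every HFM mouse was above the HFS mean and 5 were above every HFS mouse. The mean was 5.93 ± 0.16 in HFM and 5.69 ± 0.10 in HFS livers (SD, n = 7 each). Its difference of 0.24 (standard error 0.07) had the smallest p of the members, 0.00435 unadjusted and 0.714 adjusted in limma, with an exact permutation p of 0.00699. Myl12b, the nearly identical gene beside it on chromosome 17, differed by 0.19 with a p of 0.0653. Probes for such close copies may share signal, so the split between Myl12a and Myl12b is uncertain.

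Myh9, the heavy chain of non-muscle myosin IIA, spanned 7.74 to 8.20 in HFM livers, median 7.94, and 7.51 to 7.92 in HFS livers, median 7.75. All 7 HFM mice were above the HFS mean and 4 were above every HFS mouse. Its difference was 0.20 (standard error 0.08), with an unadjusted limma p of 0.0269 and an exact permutation p of 0.0373, and a second Myh9 probe set differed by 0.28 (standard error 0.09). Myl9, the regulatory light chain most abundant in smooth muscle, was lower, at 3.81 to 4.18 in HFM livers, median 4.01, against 3.97 to 4.60 in HFS livers, median 4.24. Every HFM mouse was below the HFS mean, and 3 were below every HFS mouse. The difference was -0.23 (standard error 0.08), with an unadjusted limma p of 0.0129 and an exact permutation p of 0.0175. The probe set is dim, with a mean of 4.12, and 6 of 7 smooth muscle markers were below 0 as well, with a median of -0.09 and none called. Whether smooth muscle content had a part in the Myl9 difference was not tested. Myl6, the essential light chain, differed by 0.10, and 5 further Myl6 probe sets differed by 0.08 to 0.11.

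Other actin genes outside the 46 were taken from lists written from textbook knowledge. Of 20 further regulators made mainly by leukocytes, 17 were above 0 with a median of 0.11, and 1 was called higher (5%, against 3.57% of all probe sets) and 0 lower. Wipf1, the partner that stabilises WASP, differed by 0.36 (standard error 0.15) with an unadjusted limma p of 0.0292. Next in order were Myo1f at 0.22, Arhgdib at 0.36 and Arhgap30 at 0.19, none of them called. Without HFM2 the number called was 0, where 2.49% of all probe sets were called higher. Of 67 measured regulators made widely, 50 were above 0 with a median of 0.05, 6 were called higher (8.96%, against 3.57% of all probe sets) and 1, Coro2a at -0.14, lower. Coro1c and Coro1b, coronins of most cells, differed by 0.29 (standard error 0.10) and 0.24 (standard error 0.10), Pls1 by 0.16 and Vav2 by 0.19. The others called higher were Elmo1 at 0.19 and Myo9b at 0.26. Without HFM2 the number called higher was 1 (1.49%, against 2.49% of all probe sets). Arhgdib, Coro1c, Elmo1 and Myo9b also stand in the study's categories drawn from these livers, which include 3 of the 6 called higher. Coro1a minus Coro1b within each mouse was lower by 0.19 in HFM than in HFS livers and lay below the HFS mean in 6 HFM mice, while Rac2 minus Rac1 was higher.

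Markers of blood and stromal cells were read in the same livers, and their counts stand beside 3.57% of all probe sets called higher, or 2.49% without HFM2. All 7 pan-leukocyte markers were above 0, with a median of 0.27 and 2, Itgb2 and Cd48, called higher, of which Itgb2 was called without HFM2. All 12 Kupffer cell and macrophage markers were above 0, with a median of 0.30, and Mpeg1, Cd5l, C1qb, Cd68 and Marco were called higher. Without HFM2 the median was 0.22, and Mpeg1 and Cd5l were called. The mean level of the 12 ran from 6.62 to 7.62 in HFM and from 6.33 to 7.37 in HFS livers, highest in HFM2 and HFS5. Of 10 neutrophil markers 8 were above 0 and 1, Cxcr2, was called higher. Without HFM2, 3 of the 10 were above 0, with none called higher and 1, Ltf, called lower. The mean level of the 10 was 3.73 to 4.92 in HFM and 3.71 to 4.14 in HFS livers. All 8 stellate cell and fibroblast markers were above 0, with a median of 0.20 and 2, Col1a2 and Pdgfrb, called higher, of which Col1a2 was called without HFM2. Monocyte markers had a median of 0.04 with none of 5 called. Sinusoidal endothelial markers had a median of 0.07 with 1 of 7, Stab1, called higher and none without HFM2. Itgb2, Laptm5, Cd5l, Cd68, Marco, Adgre1 and C1qa are also in the study's categories. The part of these cells in the differences of Rac2, Arpc1b, Msn, Capg or any other member was not tested. In whole liver, a change in the number of cells of a type and a change of RNA per cell cannot be told apart.

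**Figure D3:**
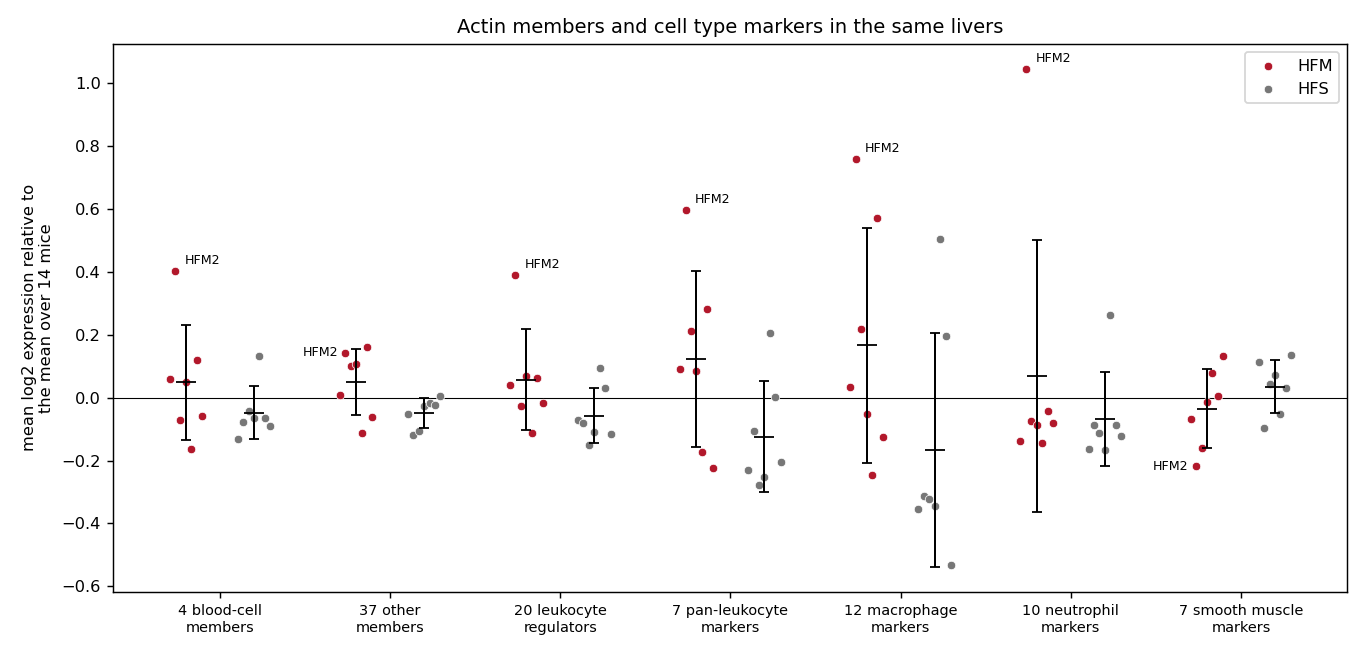
Mean log2 expression of 2 sets of members, 20 other leukocyte actin regulators and 4 marker lists in each mouse, relative to the mean over 14 mice; points are mice, bars are mean and SD of 7 HFM (red) and 7 HFS (gray) mice. HFM2 is the highest mouse in the blood-cell members and in the leukocyte, macrophage and neutrophil lists, but not in the 37 other members.

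The HFM mice also varied more. The SD over 7 mice was larger in HFM than in HFS livers for 33 of 41 members (80.5%), where 69.6% of all probe sets showed the same. The median SD of the members was 0.184 in HFM and 0.113 in HFS livers. In 13 members the HFM spread was more than 2 times the HFS spread (31.7%, against 17.4% of all probe sets). Actn1, with an SD of 0.38 in HFM and 0.08 in HFS livers, Arpc1b, Flna and Wasf2 were examples. Leaving out each HFM mouse in turn gave 31 to 34 members with the larger SD in HFM livers, so the count did not rest on 1 HFM mouse. Over all probe sets the same leave-outs gave 62.8% without HFM3 to 71% without HFM4. Without HFM3 the HFM spread was more than 2 times the HFS spread in 26.8% of members and 13.7% of all probe sets. The part of array quality in this spread was not tested. The extremes were shared by a few mice, since HFM2 was highest of its group in 13 members and HFM3 and HFM6 in 10 each, while HFM5 was lowest in 14 and HFM7 in 11.

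**Figure D4:**
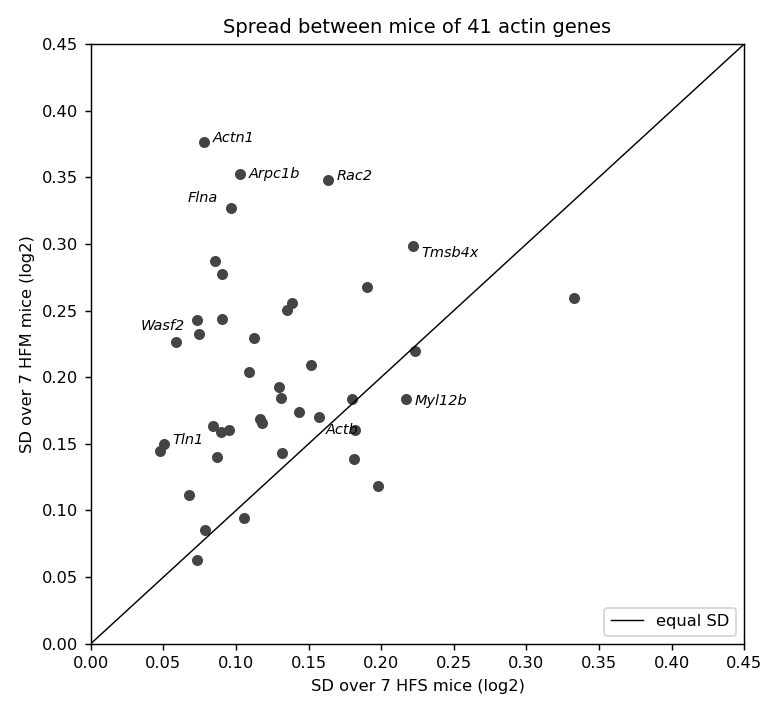
SD of log2 expression over 7 HFM mice (vertical axis) against the SD over 7 HFS mice (horizontal axis) for the 41 measured members; the line marks equal SD. Of the 41 points 33 lie above the line, Actn1, Arpc1b, Rac2 and Flna farthest from 0 on the HFM axis.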

How the data were processed

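Total RNA from 14 livers (7 HFM, 7 HFS) was hybridized by the authors to Mouse Gene 1.0 ST arrays, 1 mouse each. They deposited log2 expression for every probe set, made in Affymetrix Expression Console with normalization between arrays. RMA is the algorithm in the sample labels and PLIER in the methods, and no version is named. Every array column was used (0 left out). Groups came from the sample titles. Probe sets were named from the platform annotation, and the 23410 with at least 1 gene symbol were tested (12146 were not), with no filter on signal. Whether a probe set also reads copies of its gene elsewhere in the genome was not examined. Differences, standard errors and p values are from limma 3.58.1 (lmFit and eBayes, no covariate) in R 4.3.3, adjusted after Benjamini and Hochberg over all probe sets tested. Single members also had a two-sided exact permutation test. The limma p values set each difference of group means against the spread between these mice, which eBayes moderates over all probe sets. The number of arrays limits the precision. The methods' filter asks for 1.2-fold and an unadjusted p under 0.01, and the methods then apply a Bonferroni correction, which is counted separately here.

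The members, the lists and the rule for named genes were chosen with earlier results of these data known. The rule gives full values for the blood-cell members, Actb and each member at an unadjusted p under 0.05, and the 4 smallest p of each further actin list. Alternatives tried were quantile normalization, centring on the array median, a block for the replicate number, the brighter probe sets only, array weights, an unmoderated test, a trended and robust prior, 1 probe set per gene, probe sets averaged per gene and each mouse left out. The mice share replicate numbers across groups, but correlations of same-numbered deviations ran from -0.203 to 0.139, so the numbers were not taken as pairs. Tested on simulated data of 23410 probe sets in 7 against 7 mice, the fit recovered 83% of 1.2-fold and 98% of 1.5-fold changes at an unadjusted p of 0.05 and called 5.25% of unchanged probe sets. At an adjusted p of 0.05 it recovered 20% and 88%. These shares are not the recovery for single members. The SD within groups ran from 0.07 to 0.30 among the members, with a median of 0.165, against 0.153 over all probe sets. It was 0.26 in Arpc1b and 0.27 in Rac2, and recovery at the SD of a single member is not given here. Promoter windows and gene order came from RefSeq (GRCm38.p6).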

Additional observations from a re-analysis of the deposited data

Results flagged for a closer look

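In 4 of 82 groups of 7 mice, 1 mouse lay far from the others by Dixon's ratio, the gap to the nearest mouse over the whole range. Chance alone gives about 1 in 20 such groups. Tln1 had a ratio of 0.581 in HFM mice, where HFM5 was lowest at 6.89 and the nearest mouse was at 7.15. Cdc42 had a ratio of 0.57 in HFM mice, where HFM6 was highest at 8.64 and the nearest mouse was at 8.19. Actb had a ratio of 0.725 in HFS mice, where HFS2 was lowest at 11.11 and the nearest mouse was at 11.44. Arpc1b had a ratio of 0.676 in HFS mice, where HFS5 was highest at 7.06 and the nearest mouse was at 6.85.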

How the results depend on the processing

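No alternative brought a member past an adjusted p of 0.05 or a Bonferroni correction. Myl12a, Iqgap1, Arpc1b and Limk1 kept their call in all 23 alternatives, and Myl9 in the 22 that held its probe set. With the replicate number as a block, 6 members were called higher (10 without it), 2 other leukocyte regulators were called higher (1 without it) and 0 widely made ones lower (1 without it), and Rac2, Capg, Msn and Tln1 were no longer called. Of the 14 mice 0 correlated best with the mouse of the same number. Over the 23 alternatives Tmsb4x lost its call in 13, Msn in 12, Rac2 and Tln1 in 8 each, and Capg, Myh9 and Tiam1 in 4 each. Quantile normalization called 7 members higher, without Tmsb4x, Msn and Tln1, and gave 2 leukocyte and 3 widely made regulators called higher (6 as reported). Median centring, which shifted the median of all probe sets to 0.03, gave 2 and 10 with 0 widely made ones lower, and 2 members past the methods' filter (0 as reported); over all probe sets it called 5.4% higher and 1.7% lower. Among brighter probe sets only, 0 members were called lower and 4 were below 0, because Myl9, Tiam1 and Was were not among them, and 3 widely made regulators were called higher and 0 lower. The trended and robust prior put 1 member past the methods' filter and called 0 widely made regulators lower. The unmoderated test called 7 members higher, without Tmsb4x, Rac2 and Msn, and called 0 leukocyte regulators higher and 2 widely made ones lower. Array weights put 7 members past an unadjusted p of 0.01 (2 as reported) and 4 past the methods' filter, and called 3 leukocyte regulators higher. Averaging probe sets per gene put 4 and 1 past these thresholds, and 1 probe set per gene called 0 widely made regulators lower. The cause of these changes was otherwise not tested. Over all probe sets, 3.13% were called higher with the replicate block, 3.22% after quantile normalization, 3.27% in the unmoderated test and 4.46% with array weights. The share was 3.35% with the trended and robust prior and 4.55% among brighter probe sets only. Shares of all probe sets past an unadjusted p of 0.01 or the methods' filter are not given here for the alternatives.

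Leaving out each mouse, 5 to 16 members were called higher and 1 to 2 lower, 0 to 0 passed an adjusted p, 1 to 10 an unadjusted p of 0.01 and 0 to 7 the methods' filter, and 31 to 35 were above 0 and 6 to 10 below. The number called in either direction was 12 as reported, 7 without HFM4, HFM6, HFS2 or HFS3 and 18 without HFM5. Over all probe sets, the share called higher ran from 2.49% without HFM2 to 5.4% without HFM5. The share called lower ran from 2.13% without HFM2 to 5.25% without HFM7. Other leukocyte regulators called higher numbered 0 to 5 and lower 0 to 0, and widely made ones 1 to 12 and 0 to 2. The median difference was 0.08 to 0.13 over the members, 0.03 to 0.11 over the blood-cell members, 0.08 to 0.14 over the others, 0.05 to 0.14 over other leukocyte regulators and 0.04 to 0.07 over widely made ones. The Coro1a difference ran from -0.015 without HFM2 to 0.10 without HFM5. Signal limits the dim members Was, Capg, Myl9 and Tiam1.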

Other observations

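Lymphocyte markers were called in both directions at an unadjusted limma p under 0.05, beside 3.57% of all probe sets called higher and 2.90% lower. Of 5 measured B cell markers 2 were called lower, Blk, a kinase of B cells, by -0.24 (standard error 0.09) and Cd79a, a chain of the B cell receptor, by -0.24 (standard error 0.10). Of 7 NK cell markers 1 was called lower, Prf1, the pore protein perforin, at -0.16 (standard error 0.07). Of 6 T cell markers 1 was called higher, Cd3g, a chain of the T cell receptor complex, at 0.22 (standard error 0.07), and none of 5 platelet or 5 cholangiocyte markers was called. Without HFM2, Blk, Prf1 and Cd3g were called in the same direction, Cd79a was not, and the B cell gene Ms4a1 was called higher. Blk is also in the study's categories. These genes, chosen after their values were seen, have dim probe sets, and none had an adjusted p under 0.05. The mean of the B cell markers was -0.03 ± 0.10 in HFM and 0.03 ± 0.09 in HFS mice relative to the mean of all 14 (SD, n = 7 each).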
